A study of Mus musculus with 16 samples.

Results

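The proteins that tie epithelial cells to each other and to their keratin cytoskeleton were followed at the RNA level in LKR10, a cell line from a mouse lung adenocarcinoma. The genes were taken by family name and by no cut on their values, though earlier results of these data were known. They were all keratins (Krt), claudins (Cldn), desmocollins, desmogleins and plakophilins (Dsc, Dsg, Pkp), other tight junction proteins such as Tjp1, Tjp3, Cgn, F11r, Ocln, Marveld2 and Marveld3, desmoplakin, plakoglobin and Perp (Dsp, Jup, Perp), the plakins Ppl and Evpl, and Cdh1, Epcam, Ctnna1, Ctnnb1 and Ctnnd1. In the mouse annotation 99 protein-coding symbols met that rule, and 33 of them were among the 12321 genes with values. These were 9 keratins (6 of type I and 3 of type II), 4 claudins, 5 other tight junction genes, 8 desmosome genes, 2 plakins and 5 genes of the adherens junction or, for Epcam, of adhesion. The other 66, among them Ocln, Cldn3, Cldn4, Cldn7, Dsg2, Krt5 and Krt17, are not analysed here.

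RNA had been sequenced in 16 libraries, 4 from each of 4 groups: shAnkrd35 in 3D, shGFP in 3D, shAnkrd35 in 2D and shGFP in 2D. In all groups the cells carried a pLKO lentivirus, with a hairpin against Ankrd35 or, as the control, against GFP, and had been through selection with puromycin at 4 µg/ml for 48 h and a further 96 h of growth. In 3D the cells grew as clusters in 0.5% methylcellulose, and in 2D as a monolayer in DMEM with 10% serum. One cell line was used, the number of distinct hairpin sequences is not given in the sources used here, and nothing in the labels says that the 4 libraries of a group came from separate cultures, so p-values measure the spread between libraries, which may be technical. The study asked how loss of Ankrd35, an ankyrin repeat protein, alters expression in each growth type.

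Keratins are intermediate filament proteins that assemble as pairs of a type I and a type II chain, and Krt8 with Krt18 is the pair of simple epithelia such as the lining of the airways and alveoli. Keratin filaments are anchored at desmosomes, where the desmosomal cadherins (desmocollins and desmogleins) bind plakoglobin and plakophilins, which bind desmoplakin. Tight junctions seal the apical border with claudins, whose cytoplasmic partners are the zonula occludens scaffolds. Adherens junctions are built from E-cadherin (Cdh1) and its catenins, and their loss is a textbook mark of the change from an epithelial to a mesenchymal state.

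The RefSeq promoter table for GRCm38.p6 (250 bases before to 50 after a start site, 5′ to 3′) held 29 promoters of 21 of the 33 genes. Those of 5 genes on which the results turn are printed here: the abundant keratin pair Krt8 (chr15:102004293-102004592, minus strand) and Krt18 (chr15:102027966-102028265, plus strand), Krt7 (chr15:101412153-101412452, plus strand), and the claudins Cldn6 (chr17:23679115-23679414, plus strand) and Cldn2 (chrX:139800558-139800857, plus strand). Capitals mark the E-box CAGGTG on either strand, read as CACCTG where it lies on the other one, which is the sequence bound by the repressors of the ZEB and SNAIL families.
Krt8 promoter: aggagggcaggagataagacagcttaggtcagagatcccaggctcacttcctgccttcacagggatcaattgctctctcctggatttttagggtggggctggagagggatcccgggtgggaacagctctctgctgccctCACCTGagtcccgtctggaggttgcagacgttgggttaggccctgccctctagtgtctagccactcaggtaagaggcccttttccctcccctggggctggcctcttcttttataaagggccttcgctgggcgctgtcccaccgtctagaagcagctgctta
Krt18 promoter: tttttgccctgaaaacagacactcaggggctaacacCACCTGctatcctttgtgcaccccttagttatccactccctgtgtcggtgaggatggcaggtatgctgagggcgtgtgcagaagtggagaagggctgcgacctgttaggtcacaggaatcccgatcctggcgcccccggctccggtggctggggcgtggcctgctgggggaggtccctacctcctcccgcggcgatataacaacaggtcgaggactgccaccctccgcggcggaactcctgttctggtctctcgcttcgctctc
Krt7 promoter: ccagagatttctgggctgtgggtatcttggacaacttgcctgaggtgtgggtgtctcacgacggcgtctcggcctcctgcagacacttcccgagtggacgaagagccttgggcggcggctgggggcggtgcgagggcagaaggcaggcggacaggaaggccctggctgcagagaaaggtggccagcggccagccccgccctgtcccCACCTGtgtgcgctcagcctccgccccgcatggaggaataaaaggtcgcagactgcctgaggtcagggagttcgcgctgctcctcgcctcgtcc
Cldn6 promoter: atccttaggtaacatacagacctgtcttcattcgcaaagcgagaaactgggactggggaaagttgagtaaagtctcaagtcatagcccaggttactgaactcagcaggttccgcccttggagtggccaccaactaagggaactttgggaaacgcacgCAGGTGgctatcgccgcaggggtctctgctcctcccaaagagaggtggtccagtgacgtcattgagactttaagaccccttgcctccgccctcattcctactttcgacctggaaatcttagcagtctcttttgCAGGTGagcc
Cldn2 promoter: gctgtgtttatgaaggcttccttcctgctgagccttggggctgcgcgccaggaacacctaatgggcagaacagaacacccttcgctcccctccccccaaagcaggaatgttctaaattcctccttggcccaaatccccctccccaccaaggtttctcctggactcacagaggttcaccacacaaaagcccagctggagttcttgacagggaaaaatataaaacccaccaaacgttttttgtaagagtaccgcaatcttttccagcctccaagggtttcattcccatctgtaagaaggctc
The E-box stood in these windows in 11 of the 21 genes (Cldn6, Dsp, Epcam, F11r, Krt10, Krt18, Krt23, Krt7, Krt8, Pkp4 and Tjp3), against 22.6% of the 27025 genes in the table, and Cldn2 had none. The palindrome AACCGGTT, which Grainyhead-like factors bind, stood in 0 of the 21 genes, against 0.174% of all genes. A match is a description of the letters and shows no binding.

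Levels are given as CPM, reads counted per 1 M of the library size that the authors had scaled, and levels of different genes are compared only as CPM per kilobase of exon. Krt8 and Krt18 were the most abundant of the 33 genes on that scale in all 4 groups, with group means of 1808 and 1534 CPM per kilobase in 3D with shAnkrd35, 1585 and 1291 in 3D with shGFP, 2113 and 1977 in 2D with shAnkrd35, and 1534 and 1226 in 2D with shGFP. Krt19 came next, and together these simple-epithelial keratins made up 99.7% of the keratin level per kilobase in each group. Cldn2 was the most abundant claudin, F11r led the other tight junction genes, Jup the desmosome genes and Ctnnb1 the adherens junction genes on the mean over all libraries, and Ppl stood above Evpl. The stratified-epithelium keratins Krt10, Krt13 and Krt14 ranged over all libraries from 0.333 CPM (Krt14) to 7.70 CPM (Krt10), and Krt7 and Epcam, both common markers of simple epithelia, did not pass 3.30 CPM.

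**Figure D1:**
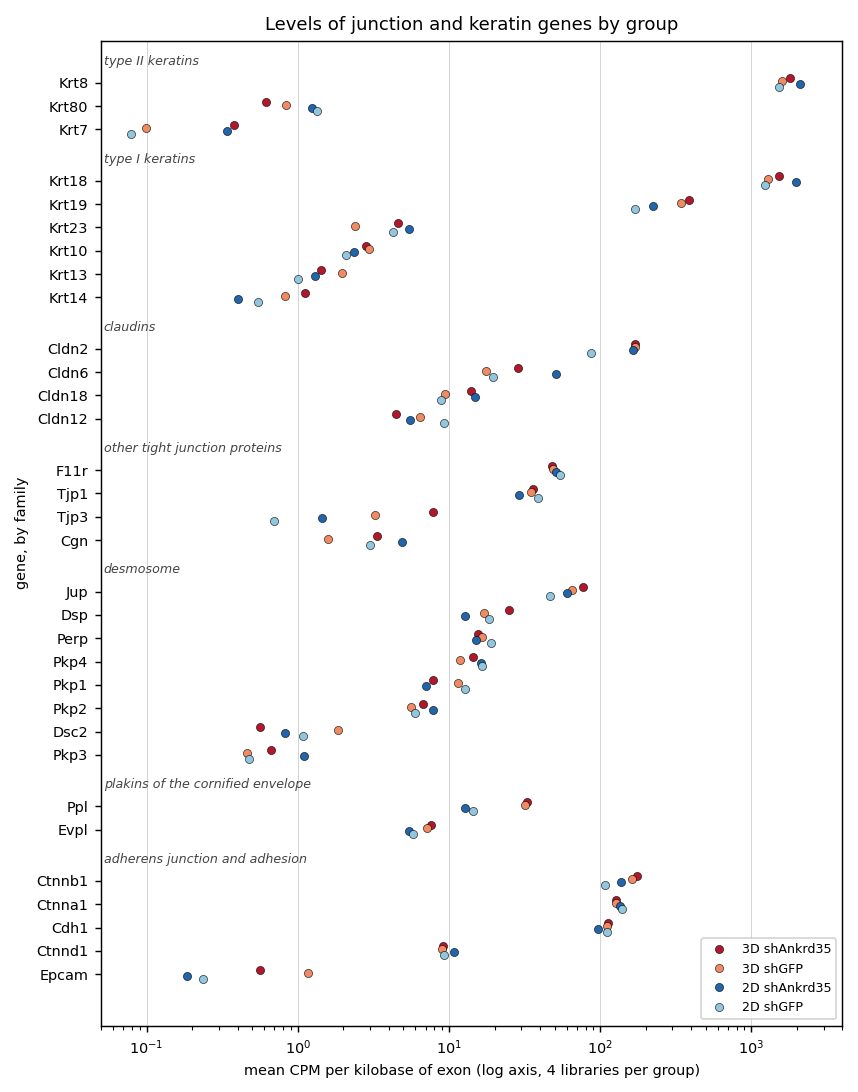
Mean level of 32 of the 33 genes in the 4 groups, in CPM per kilobase of exon on a log axis, with genes grouped by family. Krt8 and Krt18 stand at 1226 CPM per kilobase or more in every group, and Krt7, Epcam, Krt14 and Pkp3 are among the genes at the low end.

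The libraries held 13.82 to 28.72 M reads. Library 1 of 2D shAnkrd35 stood apart from the other 3 of its group (chi-square per degree of freedom of 32.9 to 44.9 in its pairs, 4.04 to 11.5 in the others), and counts of calls were also run without it. The Ankrd35 transcript does not settle the hairpin labels: it had 12, 11, 9 and 9 reads in the 3D libraries labelled shAnkrd35 against 14, 17, 16 and 16 in those labelled shGFP, and 2, 6, 7 and 1 reads against 2, 3, 6 and 7 in 2D. Scaled to library size the 3D groups overlapped (0.414 to 0.632 CPM with shAnkrd35 and 0.538 to 0.662 with shGFP). Libraries also differed in how counts followed GC content. Over 12216 genes the fold change of shAnkrd35 against shGFP correlated with exonic GC (Spearman's rho across genes 0.217 in 3D and 0.396 in 2D), as did that of 3D against 2D (-0.474 with shAnkrd35 and -0.343 with shGFP). For the 33 genes, results that did not hold once that trend and the one with length were taken out are marked where they stand. Other genes, from the related lists and the marker lists, were not checked in that way, so their results carry no such mark. Of 14 listed alveolar markers 5 were measured, and surfactant genes and Nkx2-1 are not analysed here, so the lung origin is not read from this table. Vim, the mesenchymal filament protein, was high in every group (3671 ± 133 CPM in 3D with shAnkrd35, 3422 ± 36.6 in 3D with shGFP, 4448 ± 313 in 2D with shAnkrd35 and 4431 ± 221 in 2D with shGFP, SD, n = 4 each).

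With shAnkrd35 the keratins of simple epithelia (Krt7, Krt8, Krt18 and Krt19), the claudins Cldn6 and Cldn18 and the scaffolds Tjp3 and Cgn were higher than with shGFP in both growth types, while desmosome genes moved in both directions. With the trends in GC content and length removed, Krt8 was called in neither growth type and Krt18 in 2D only. In 3D, 14 of the 33 genes rose and 5 fell at an adjusted p under 0.05 (limma over all 12320 genes tested, Benjamini-Hochberg), a called share of 57.6% beside 29.7% of all genes (15% higher and 14.6% lower). In 2D, 16 rose and 9 fell, a called share of 75.8% beside 57.9% of all genes (29% higher and 28.8% lower). These tests shared 1 estimate of spread per gene over all 16 libraries. Fitted to only the groups compared, 41.3% of all genes were called in 3D and 47.9% in 2D. In those fits Krt13 and Pkp3 were also called in 3D, and F11r, Krt23 and Ppl were not called in 2D. The median log2 fold change of the 33 genes was 0.10 in 3D and 0.23 in 2D, beside 0.00 and 0.01 for all genes. In these whole cultures, more cells with a transcript and more transcript per cell cannot be told apart. The 4 libraries with shAnkrd35 lay wholly above or below the 4 with shGFP in 20 of the 33 genes in 3D and 22 in 2D, beside 38.2% and 39.8% of all genes. A called change of at least 2-fold was found in 5 of the 33 in 3D and 4 in 2D, beside 2.16% and 5.58% of all genes. Without library 1 of 2D shAnkrd35 the counts of genes that rose and fell were 15 and 5 in 3D, where 35.1% of all genes were then called, and 17 and 10 in 2D, where 63.2% were.

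The hairpin comparisons in 3D and in 2D share no library. Of the 33 genes 16 were called in both, beside 19.6% of all genes, and 15 of them went in the same direction, while 85.3% of the 2415 genes called in both over the whole table moved the same way. In both growth types 12 genes were higher with shAnkrd35, among them Krt7, Krt8, Krt18, Krt19, Krt23, Cldn6, Cldn18, Tjp3, Cgn, Jup and Pkp2, which is 36.4% of the 33 genes beside 9.07% of all genes. Cldn12, Pkp1 and Dsc2 were lower in both, desmoplakin (Dsp) was called in opposite directions, and 5 genes (Ctnna1, Evpl, Krt10, Krt13 and Krt14) were called in neither. With the GC and length trends removed, Krt8 was called in neither growth type, Krt18 not in 3D, and Krt23 and Dsc2 not in 2D. Fewer than 12 genes were then higher in both, and the share of all genes higher in both was not counted for that fit.

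**Figure D2:**
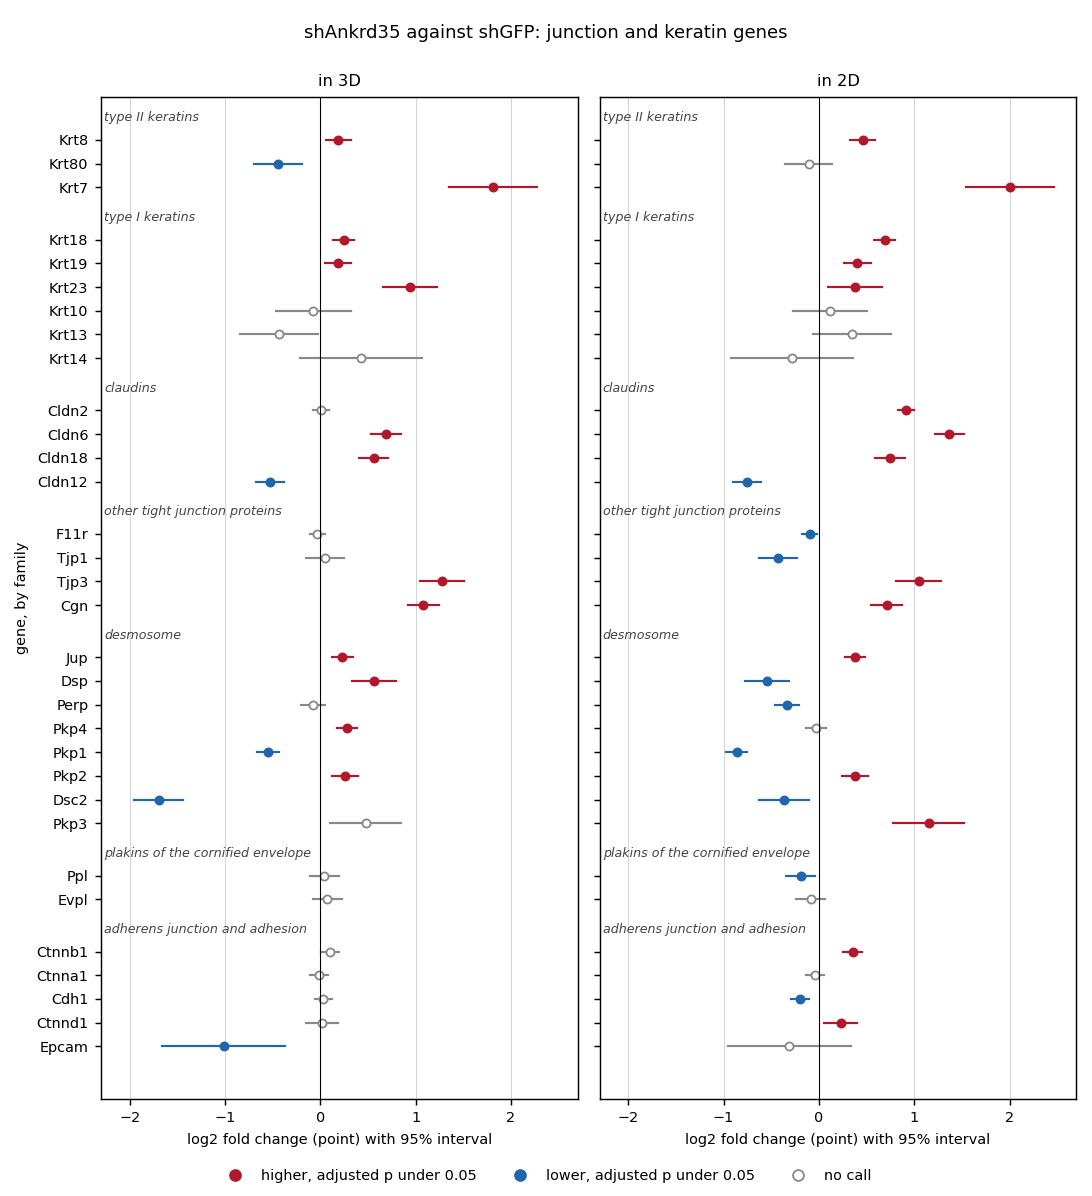
Log2 fold change of shAnkrd35 against shGFP for 32 of the 33 genes in 3D (left) and in 2D (right), with 95% intervals; filled points are higher (red) or lower (blue) at an adjusted p under 0.05. Krt7 is the highest keratin in both panels, Cldn2 lies at 0.00 in 3D and at 0.91 in 2D, and Dsp is above 0 in 3D and below it in 2D.

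The main keratin pair was higher with shAnkrd35 in both growth types. Krt8 (chr15:101996698-102004482, minus strand) had 3605, 3364, 3516 and 3672 CPM in the 3D libraries with shAnkrd35, against 2998, 3075, 3163 and 3178 CPM with shGFP. Its 2D level was 4681, 4205, 4020 and 3641 CPM with shAnkrd35, against 3107, 2798, 3109 and 3003 CPM with shGFP. The groups did not overlap in either growth type, and the log2 fold change was 0.19 ± 0.06 in 3D and 0.46 ± 0.06 in 2D (± SE, n = 4 against 4, limma adjusted p = 0.0292 and 1.29e-05). The 3D call was lost without 3D shAnkrd35 replicates 1, 3 or 4 or 3D shGFP replicates 1 or 2 (0.17 to 0.19). The 3D fold change was 0.01 after quantile normalization, and with the trends in GC content and length removed it was 0.12 in 3D (adjusted p = 0.326) and 0.21 in 2D (adjusted p = 0.0553).

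Krt18 (chr15:102028180-102032027, plus strand), the partner of Krt8, lies 23.7 kb from it on the same chromosome. Its level was 2294, 2039, 2262 and 2221 CPM in 3D with shAnkrd35, against 1840, 1862, 1860 and 1859 CPM with shGFP. In 2D, Krt18 had 3019, 2960, 2841 and 2546 CPM with shAnkrd35, against 1781, 1687, 1816 and 1760 CPM with shGFP. Again each library with shAnkrd35 lay above each with shGFP, by a log2 fold change of 0.25 ± 0.05 in 3D (limma adjusted p = 0.00169) and 0.69 ± 0.05 in 2D (adjusted p = 1.83e-08). With the GC and length trends removed the 2D call stayed at 0.40 and the 3D one did not (0.17, adjusted p = 0.107), and quantile normalization also ended the 3D call (0.08). Krt8 has a pseudogene, Krt8-ps, 98.6% identical over 48.1% of its transcript, and Krt18 shares 88.2% of its transcript with Gm5200 at 90.5% identity, so their counts are uncertain.

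The balance within the pair also differed. The Krt8 to Krt18 ratio, of levels per kilobase, was 1.18 ± 0.04 in 3D with shAnkrd35 and 1.23 ± 0.03 with shGFP, and 1.07 ± 0.05 in 2D with shAnkrd35 and 1.25 ± 0.03 with shGFP (SD, n = 4 each). The groups did not overlap in 2D, and in 3D the ranges met, from 1.14 to 1.21 with shAnkrd35 and from 1.196 to 1.25 with shGFP.

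Krt19 (chr11:100140810-100148665, minus strand), a short type I keratin of simple and ductal epithelia, was also higher with shAnkrd35. It stood at 763, 677, 771 and 673 CPM in 3D with shAnkrd35 and at 645, 655, 611 and 618 CPM with shGFP. In 2D it stood at 374, 439, 439 and 407 CPM with shAnkrd35 and at 343, 293, 322 and 295 CPM with shGFP. The groups were separate in both growth types, with a log2 fold change of 0.19 ± 0.07 in 3D and 0.40 ± 0.07 in 2D (limma adjusted p = 0.0382 and 7.26e-05). The 3D call was lost without 3D shAnkrd35 replicates 1 or 3 or 3D shGFP replicates 1, 3 or 4 (0.15 to 0.20) and after scaling to total reads (0.17). With the GC and length trends removed the fold change was 0.12 in 3D and 0.15 in 2D (adjusted p = 0.0247 and 0.00269).

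Krt7 (chr15:101411043-101430313, plus strand), the other simple-epithelium type II keratin, was the member with the greatest fold change between hairpins, at a low level. It had 2.69, 2.41, 3.298 and 2.34 CPM in 3D with shAnkrd35, against 0.611, 0.818, 0.772 and 0.605 CPM with shGFP. The 2D values were 2.301, 2.57, 2.07 and 2.67 CPM with shAnkrd35, against 0.926, 0.471, 0.381 and 0.456 CPM with shGFP. No library with shGFP reached the lowest with shAnkrd35, and the log2 fold change was 1.81 ± 0.22 in 3D and 2.01 ± 0.22 in 2D (limma adjusted p = 8.54e-06 and 1.18e-06).

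The 5 remaining keratins were low. Krt23, a type I keratin, rose in 3D (0.94 ± 0.13, limma adjusted p = 4.88e-05; 6.44 to 7.75 CPM with shAnkrd35 and 3.47 to 3.87 with shGFP). Its 2D call (0.38 ± 0.13, adjusted p = 0.0227) was lost without 2D shAnkrd35 replicates 2 or 4 or 2D shGFP replicate 4 (0.22 to 0.36), and with the GC and length trends removed (0.14). Krt80 fell in 3D (-0.44 ± 0.12, adjusted p = 0.00829; 3.02 to 4.65 CPM with shAnkrd35 and 4.93 to 5.88 with shGFP) and was not called in 2D (-0.11 ± 0.12). Krt10, Krt13 and Krt14, keratins of stratified epithelia, were called in neither growth type. Krt10 had 4.94 to 7.64 CPM in 3D with shAnkrd35 and 5.53 to 7.696 with shGFP, and 3.41 to 6.51 CPM in 2D with shAnkrd35 and 4.26 to 4.75 with shGFP. Krt13 had 2.13 to 2.97 CPM in 3D with shAnkrd35 and 3.26 to 4.403 with shGFP, and 1.56 to 3.02 CPM in 2D with shAnkrd35 and 1.52 to 2.13 with shGFP. Its 3D groups did not overlap (-0.43 on the log2 scale). It was called lower in 3D when only the groups compared were fitted, with group weights and after quantile normalization. With the GC and length trends removed it was also called lower there (-0.48, limma adjusted p = 0.0312).

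Each claudin had a pattern of its own. Cldn6 (chr17:23679249-23682446, plus strand), a claudin best known from embryonic epithelia, had 51.4, 45.7, 50.3 and 49.6 CPM in 3D with shAnkrd35, against 30.3, 31.02, 30.4 and 30.2 CPM with shGFP. In the monolayer it had 76.3, 93.95, 92.7 and 86.4 CPM with shAnkrd35, against 38.1, 30.003, 35.3 and 31.9 CPM with shGFP. The groups did not overlap in either, with a log2 fold change of 0.69 ± 0.07 in 3D and 1.37 ± 0.07 in 2D (limma adjusted p = 2.19e-06 and 3.08e-10), and the difference of the effects, 3D minus 2D, was -0.68 ± 0.10 (adjusted p = 0.000169).

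Cldn2 (chrX:139800828-139811386, plus strand), which forms a pore for cations and water in leaky epithelia, rose with shAnkrd35 in 2D and was not called in 3D. Its level in 3D was 557, 564, 571 and 558 CPM with shAnkrd35 and 571, 536, 558 and 579 CPM with shGFP. In 2D it was 523, 530.1, 571 and 552 CPM with shAnkrd35 and 293, 286, 281 and 296 CPM with shGFP. The 4 libraries of 2D shGFP lay between 281 and 296 CPM and the 12 others lay between 523 and 579 CPM. The log2 fold change was 0.00 ± 0.04 in 3D (limma adjusted p = 0.944) and 0.91 ± 0.04 in 2D (adjusted p = 2.66e-11), and the test of the difference gave -0.91 ± 0.06 (adjusted p = 1.57e-08).

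Cldn18, the claudin of lung and stomach epithelium, rose in both growth types, by 0.56 ± 0.07 in 3D and 0.74 ± 0.07 in 2D on the log2 scale (limma adjusted p = 2.13e-05 and 3.87e-07). Cldn12, a widely expressed claudin without the usual PDZ-binding tail, fell in both (-0.53 ± 0.07 in 3D and -0.76 ± 0.07 in 2D, adjusted p = 2.79e-05 and 2.32e-07). The range of Cldn18 was 58.6 to 67.9 CPM in 3D with shAnkrd35 and 40.8 to 44.9 with shGFP, and 61.9 to 77.9 CPM in 2D with shAnkrd35 and 37.4 to 44.4 with shGFP. That of Cldn12 was 17.3 to 20.5 CPM in 3D with shAnkrd35 and 25.9 to 27.6 with shGFP, and 22.4 to 25.1 CPM in 2D with shAnkrd35 and 35.9 to 44.2 with shGFP, so neither gene's groups overlapped. The 4 claudins together stood at 216 ± 1.63 CPM per kilobase in 3D with shAnkrd35 and 202 ± 5.75 with shGFP, and at 235 ± 8.42 in 2D with shAnkrd35 and 125 ± 3.08 with shGFP (SD, n = 4 each). Cldn2 made up 78.3% and 83.4% of that level in 3D with shAnkrd35 and with shGFP, and 69.7% in both 2D groups.

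**Figure D3:**
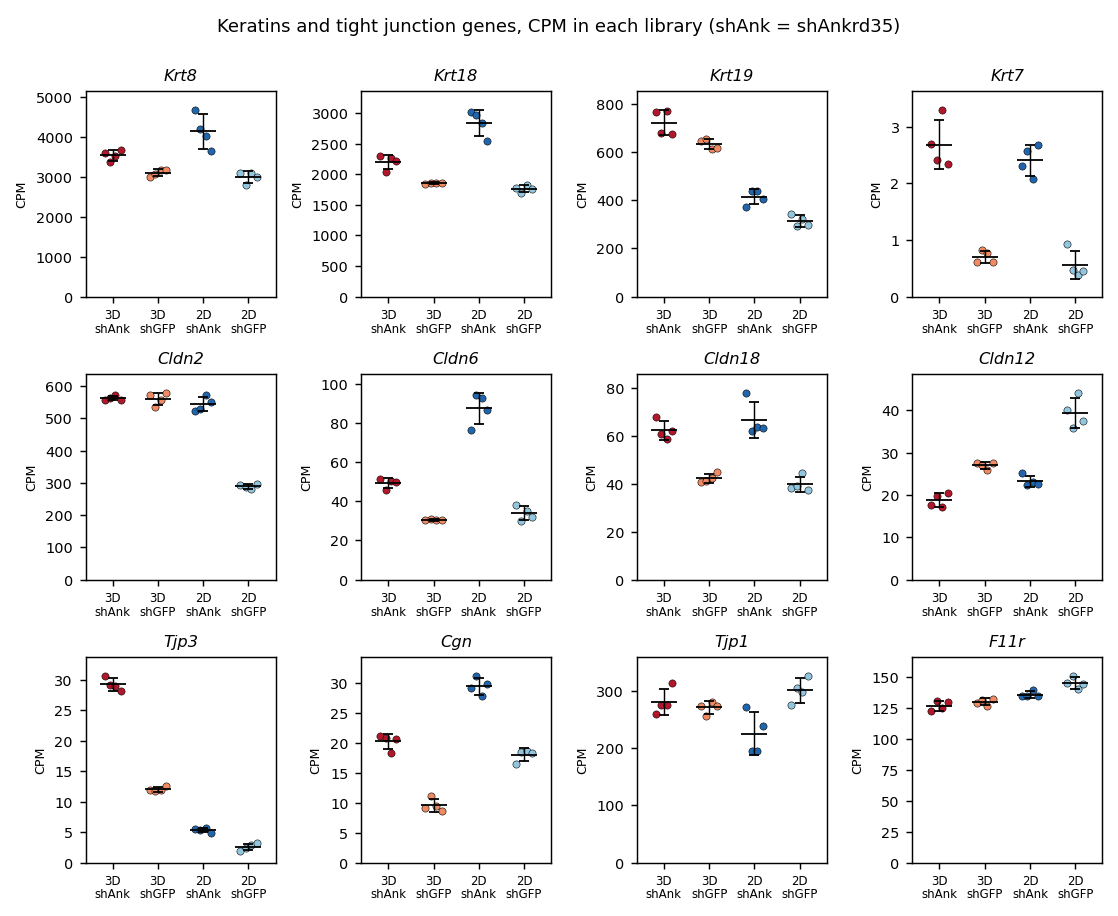
CPM of 12 keratin and tight junction genes in each of the 16 libraries (points) with the group mean and SD (bars), in the order 3D shAnkrd35, 3D shGFP, 2D shAnkrd35, 2D shGFP; each axis starts at 0. The 4 libraries of 2D shGFP lie apart from the 12 others for Cldn2, and Tjp3 and Krt7 are higher with shAnkrd35 than with shGFP in both growth types.

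Among the scaffolds, Tjp3 and cingulin carried the greater changes. Tjp3 (chr10:81273207-81291581, minus strand), the zonula occludens protein found mainly in epithelia, had 30.6, 29.2, 28.98 and 28.1 CPM in 3D with shAnkrd35, against 11.8, 11.7, 11.96 and 12.5 CPM with shGFP. In 2D it had 5.52, 5.33, 5.62 and 4.903 CPM with shAnkrd35, against 1.97, 2.36, 2.86 and 3.14 CPM with shGFP. No groups overlapped, and its log2 fold change was 1.28 ± 0.11 in 3D and 1.04 ± 0.11 in 2D (limma adjusted p = 1.78e-07 and 7.67e-07).

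Cgn (chr3:94760069-94786492, minus strand), cingulin, links the tight junction to actomyosin. It had 21.1, 20.8, 18.3 and 20.6 CPM in 3D with shAnkrd35, against 9.12, 11.1, 9.38 and 8.64 CPM with shGFP. Its 2D level was 29.04, 31.2, 27.8 and 29.8 CPM with shAnkrd35, against 16.4, 18.5, 18.7 and 18.3 CPM with shGFP. Both pairs of groups were separate, at 1.08 ± 0.08 in 3D and 0.71 ± 0.08 in 2D (limma adjusted p = 2.27e-08 and 1.14e-06). A near-identical sequence, BC021767, matched 34.2% of the cingulin transcript at 98.7% identity.

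Tjp1, which encodes the scaffold ZO-1, fell in 2D (-0.43 ± 0.09, limma adjusted p = 0.000951; 195 to 273 CPM with shAnkrd35 and 275 to 327 with shGFP) and was not called in 3D (0.05 ± 0.09). In 2D the highest Tjp1 value with shAnkrd35 was that of library 1. F11r (chr1:171437535-171464603, plus strand), the junctional adhesion molecule JAM-A, had 122, 131, 125 and 130.1 CPM in 3D with shAnkrd35, against 129, 132, 127 and 133 CPM with shGFP. The 2D values were 135, 135, 140.1 and 135 CPM with shAnkrd35, against 145, 151, 140.5 and 144 CPM with shGFP, and these groups missed overlapping by under 1 CPM. Its call in 2D (-0.10 ± 0.04, adjusted p = 0.0384) was lost without 2D shAnkrd35 replicates 2 or 4 or 2D shGFP replicates 1, 2 or 4 (-0.10 to -0.08), and it was not called in 3D (-0.03 ± 0.04).

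Of the 8 desmosome genes, 4 rose and 2 fell in 3D, and 3 rose and 4 fell in 2D, beside 15% of all genes higher and 14.6% lower in 3D, and 29% and 28.8% in 2D. Jup (chr11:100368958-100397763, minus strand), plakoglobin, the catenin of desmosomes, rose in both: it had 521, 457, 522 and 471 CPM in 3D with shAnkrd35, against 421, 420.2, 415 and 422 CPM with shGFP. In the monolayer it had 387, 399, 384 and 384 CPM with shAnkrd35, against 313, 272, 311 and 302 CPM with shGFP. The groups did not overlap, and the log2 fold change was 0.23 ± 0.05 in 3D and 0.38 ± 0.05 in 2D (limma adjusted p = 0.00264 and 1.31e-05).

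Dsp (chr13:38151294-38198577, plus strand), desmoplakin, the plakin that holds keratin filaments at the desmosome, was the one gene of the 33 called in opposite directions. In 3D it had 239.9, 224, 231 and 272 CPM with shAnkrd35, against 164, 149, 170.4 and 169.9 CPM with shGFP. In 2D it had 157, 107, 107 and 118 CPM with shAnkrd35, against 159, 167, 198 and 184 CPM with shGFP. Each 3D library with shAnkrd35 was above each with shGFP (0.56 ± 0.11 on the log2 scale, limma adjusted p = 0.000916), and each 2D library with shAnkrd35 was below each with shGFP (-0.54 ± 0.11, adjusted p = 0.000525). The difference between the hairpin effects was 1.11 ± 0.15 (adjusted p = 8.5e-05). The highest of the 4 values in 2D with shAnkrd35 was again that of library 1.

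Dsc2 (chr18:20030633-20059554, minus strand), desmocollin-2, the one desmosomal cadherin with values here, fell in 3D. It had 2.61, 3.31, 2.67 and 3.22 CPM in 3D with shAnkrd35, against 7.82, 10.3, 10.1 and 10.99 CPM with shGFP. Its 2D level was 4.79, 4.04, 4.29 and 4.36 CPM with shAnkrd35, against 4.83, 6.34, 5.76 and 5.83 CPM with shGFP. In 3D all 4 libraries with shAnkrd35 were below all 4 with shGFP (-1.70 ± 0.12, limma adjusted p = 2.59e-08). In 2D the groups did not overlap either, but the call (-0.37 ± 0.12, adjusted p = 0.0167) was lost without 2D shGFP replicate 2 (-0.32) and with the GC and length trends removed (-0.11). The difference of the effects, 3D minus 2D, was -1.33 ± 0.17 (adjusted p = 3.91e-05).

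Plakophilins bind desmoplakin and cluster the desmosomal cadherins, and the 4 genes went different ways. Pkp1, best known from stratified epithelia, fell in both growth types (log2 fold change -0.55 ± 0.05 in 3D and -0.86 ± 0.05 in 2D, limma adjusted p = 6.35e-07 and 1.18e-09). Pkp2, the plakophilin of simple epithelia and heart, rose by 0.26 ± 0.07 in 3D and 0.38 ± 0.07 in 2D (adjusted p = 0.00678 and 0.00016). Pkp1 had 38.4 to 40.2 CPM in 3D with shAnkrd35 and 55.7 to 61.2 with shGFP, and 33.5 to 39.03 CPM in 2D with shAnkrd35 and 60.7 to 66.4 with shGFP. Pkp2 had 32.8 to 37.6 CPM in 3D with shAnkrd35 and 29.4 to 30.9 with shGFP, and 38.9 to 47.6 CPM in 2D with shAnkrd35 and 30.5 to 34.8 with shGFP. Groups of both genes were separate in both growth types.

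Pkp3 (chr7:141078218-141090510, plus strand), present in most epithelia, was low. It had 2.49, 1.66, 3.09 and 2.44 CPM in 3D with shAnkrd35, against 1.67, 1.83, 1.74 and 1.48 CPM with shGFP. The 2D values were 5.06, 3.99, 3.13 and 3.62 CPM with shAnkrd35, against 1.61, 1.83, 1.62 and 1.77 CPM with shGFP. The 2D groups were separate (1.15 ± 0.18, limma adjusted p = 4.37e-05), while the 3D groups overlapped and missed the threshold (0.48 ± 0.18, adjusted p = 0.0515).

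Pkp4 (chr2:59160850-59355208, plus strand), also known from adherens junctions, rose with shAnkrd35 in 3D. It had 81.4, 82.7, 82.3 and 82.6 CPM in 3D with shAnkrd35, against 65.4, 69.9, 66.9 and 69.1 CPM with shGFP. In the monolayer it had 104, 89.6, 89.03 and 88.3 CPM with shAnkrd35, against 90.8, 95.4, 95.6 and 96.8 CPM with shGFP. The 3D groups were separate (0.28 ± 0.05, limma adjusted p = 0.000348) and the 2D groups overlapped (-0.03 ± 0.05, adjusted p = 0.581). Perp, a desmosomal membrane protein and p53 target, fell in 2D (-0.34 ± 0.06, adjusted p = 0.000213) and was not called in 3D (-0.08 ± 0.06).

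Neither plakin was called in 3D, and 1 of the pair was in 2D. Ppl (chr16:5086291-5132421, minus strand), periplakin, had 229.98, 215, 224 and 238 CPM in 3D with shAnkrd35, against 217, 217, 229 and 218 CPM with shGFP. In 2D it had 104, 77.9, 80.7 and 88.01 CPM with shAnkrd35, against 90.2, 104, 99.4 and 105 CPM with shGFP. The groups overlapped in both growth types, and the 2D call (-0.19 ± 0.07, limma adjusted p = 0.033) was lost without 2D shAnkrd35 replicates 2, 3 or 4 or 2D shGFP replicates 2, 3 or 4 (-0.20 to -0.14). Evpl, envoplakin, its partner in the cornified envelope, was called in neither (0.07 ± 0.07 in 3D and -0.09 ± 0.07 in 2D).

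Of the 5 adherens junction and adhesion genes 1 fell in 3D (Epcam), and 2 rose and 1 fell in 2D, beside the same shares of all genes. Cdh1, E-cadherin, had 511 to 532 CPM in 3D with shAnkrd35 and 496 to 518 with shGFP, and 414 to 479 CPM in 2D with shAnkrd35 and 483 to 528 with shGFP. It fell in 2D (log2 fold change -0.20 ± 0.04, limma adjusted p = 0.00104) and was not called in 3D (0.03 ± 0.04). Ctnna1, the alpha-catenin that links the complex to actin, was called in neither (-0.01 ± 0.04 in 3D, with a 95% interval of -0.11 to 0.08, and -0.04 ± 0.04 in 2D, with one of -0.14 to 0.05).

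Ctnnb1 (chr9:120929216-120960507, plus strand), beta-catenin, had 855, 896, 960.4 and 929 CPM in 3D with shAnkrd35, against 852, 828, 845 and 871 CPM with shGFP. Its 2D level was 698, 702, 711 and 741 CPM with shAnkrd35, against 522, 553, 569 and 589.9 CPM with shGFP. The 2D groups were separate (0.35 ± 0.05, limma adjusted p = 7.42e-06) and the 3D groups overlapped (0.10 ± 0.05, adjusted p = 0.113). Of its exonic bases 14.6% are shared with Ulk4 on the other strand.

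Ctnnd1, p120-catenin, which holds cadherins at the membrane, was called in 2D (0.23 ± 0.08, limma adjusted p = 0.0236), and the call was lost without 2D shAnkrd35 replicates 3 or 4 or 2D shGFP replicate 4 (0.17 to 0.20). Its exons overlap those of Gm28635 on the same strand over 61.2% of their bases, so its count is uncertain. Epcam (chr17:87635979-87651129, plus strand), a homophilic epithelial adhesion molecule, had 1.304, 1.204, 1.403 and 1.04 CPM in 3D with shAnkrd35, against 2.65, 2.38, 2.78 and 2.52 CPM with shGFP. The 2D values were 0.276, 0.571, 0.184 and 0.594 CPM with shAnkrd35, against 0.644, 0.471, 0.238 and 0.709 CPM with shGFP. The 3D groups were separate and Epcam fell there (-1.01 ± 0.30, adjusted p = 0.0182), while in 2D, under 1 CPM, they overlapped (-0.31 ± 0.30, adjusted p = 0.392).

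**Figure D4:**
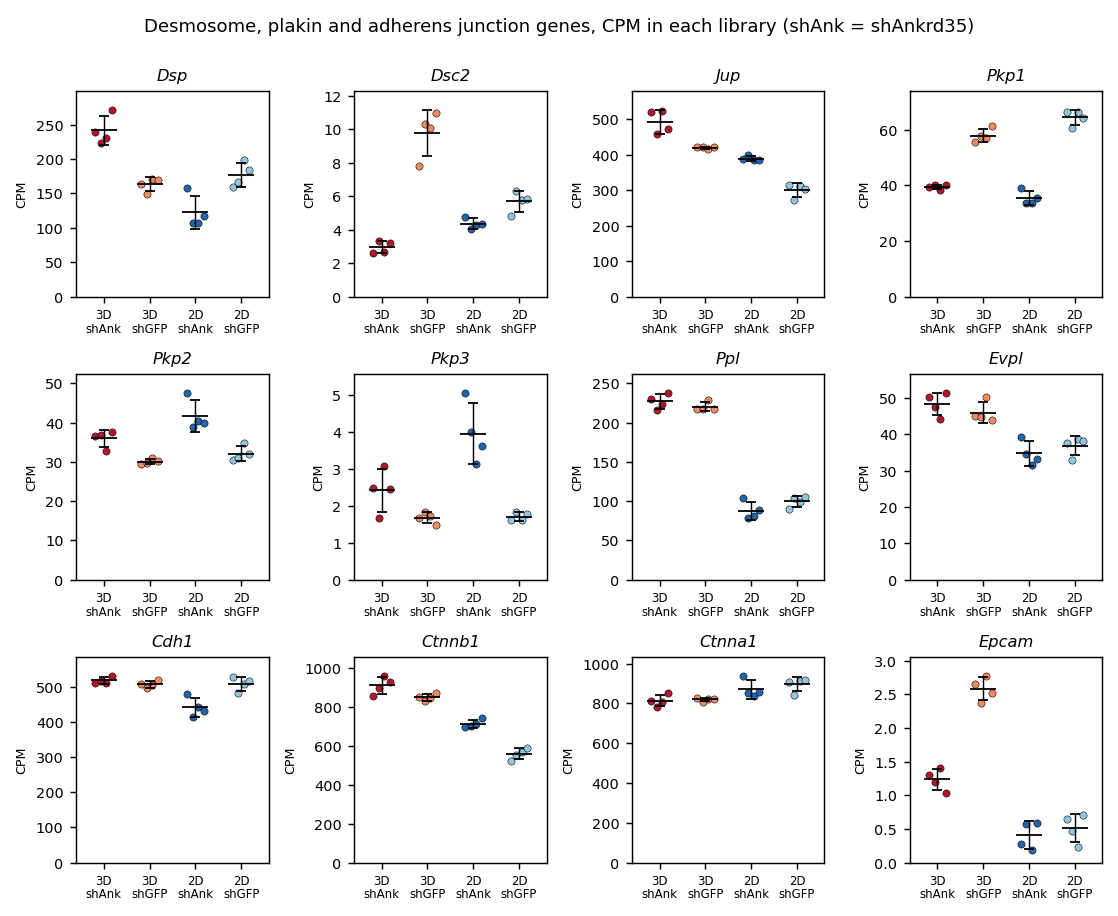
CPM of 12 desmosome, plakin, adherens junction and adhesion genes in each of the 16 libraries (points) with the group mean and SD (bars). Groups are in the order 3D shAnkrd35, 3D shGFP, 2D shAnkrd35, 2D shGFP, and each axis starts at 0. Dsp is highest in 3D with shAnkrd35 and lowest in 2D with shAnkrd35, Dsc2 and Epcam peak in 3D with shGFP, and Cdh1 spans less than a factor of 1.5 over all libraries.

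The contrast of hairpin effects between the growth types (3D minus 2D) passed the test in 16 of the 33 genes, 8 higher and 8 lower, or 48.5% beside 35.8% of all genes (17.1% higher and 18.6% lower). Without library 1 of 2D shAnkrd35 there were 10 higher and 8 lower, beside 46.7% of all genes called in that fit. The hairpin effect was more positive in 3D for Dsp, Cgn, Tjp1, Pkp1, Pkp4, Cdh1, Krt23 and Perp. It was more negative in 3D for Cldn2, Cldn6, Dsc2, Krt8, Krt13, Krt18, Ctnnb1 and Pkp3. After Cldn2, Dsc2, Dsp and Cldn6 the lowest p-values were those of Krt18 (-0.44 ± 0.07, limma adjusted p = 0.000352) and Pkp4 (0.31 ± 0.07, adjusted p = 0.00302).

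The calls for Krt18 and Krt8 in that comparison ended with the GC and length trends removed (-0.22 and -0.09, limma adjusted p = 0.133 and 0.618), and those for Krt13 and Pkp3 likewise (-0.58 and -0.62). Leaving out single libraries also ended several. Krt8 was not called without 3D shAnkrd35 replicate 2 or 3D shGFP replicate 4 or 2D shGFP replicate 2 (-0.26 to -0.23). Krt13 was not called without 3D shAnkrd35 replicates 1 or 4 or 3D shGFP replicate 2 or 2D shAnkrd35 replicates 2, 3 or 4 or 2D shGFP replicates 3 or 4 (-0.80 to -0.65). The call for Krt23 was lost without 3D shAnkrd35 replicates 1 or 2 or 3D shGFP replicates 1 or 3 or 2D shAnkrd35 replicate 3 or 2D shGFP replicates 1 or 3 (0.44 to 0.55). For Perp it was lost without 3D shAnkrd35 replicate 2 or 3D shGFP replicates 1 or 2 or 2D shAnkrd35 replicates 2 or 3 or 2D shGFP replicate 3 (0.21 to 0.25). Pkp3 was the least stable, and was not called without 3D shAnkrd35 replicates 1, 2 or 4 or 3D shGFP replicates 1, 2 or 3 or 2D shAnkrd35 replicates 1, 2 or 4 or 2D shGFP replicates 1, 2, 3 or 4 (-0.71 to -0.51). The fold changes stayed near those of all libraries, and these 5 calls lie close to the threshold.

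Between growth types the share of these genes that passed the test was near that of all genes. With shAnkrd35, 13 genes were higher and 12 lower in 3D than in 2D, a called share of 75.8% beside 70.4% of all genes (34.4% higher and 36% lower). With shGFP, 12 were higher and 9 lower, 63.6% beside 67.2% of all genes (35.2% higher and 32.1% lower). Without library 1 of 2D shAnkrd35 the counts were 13 and 12 with shAnkrd35, beside 73.4% of all genes, and 13 and 9 with shGFP, beside 70.2%. Groups were wholly separate in 22 of the 33 genes with shAnkrd35 and 21 with shGFP, beside 59.2% and 64.9% of all genes, and a called change of at least 2-fold was found in 4 and 4, beside 13.8% and 11.4%. The comparisons with each hairpin share no library, and 15 genes were called with both hairpins, beside 52.1% of all genes, 13 of them in the same direction, beside 93.8% of the 6421 genes called with both over the whole table.

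Higher in 3D with both hairpins were 8 genes, which is 24.2% of the 33 beside 24.7% of all genes, among them Tjp3, Epcam, Ppl, Krt19, Ctnnb1, Jup and Evpl. Of these, Tjp3 and Epcam had the greater fold changes. The 3D levels of Tjp3, given above, exceeded those in 2D by 2.43 ± 0.11 on the log2 scale with shAnkrd35 and 2.20 ± 0.11 with shGFP (limma adjusted p = 9.84e-12 and 2.01e-11). Epcam rose by 1.52 ± 0.30 with shAnkrd35 and 2.22 ± 0.30 with shGFP (adjusted p = 0.000293 and 6.65e-06). Periplakin rose by 1.38 ± 0.07 and 1.15 ± 0.07 (adjusted p = 7.01e-11 and 4.77e-10). For Tjp3, Epcam and Ppl, each 3D library lay above each 2D library with the same hairpin.

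Among the abundant keratins Krt19 rose in 3D, by 0.80 ± 0.07 with shAnkrd35 and 1.01 ± 0.07 with shGFP (limma adjusted p = 1.75e-08 and 5.75e-10). Krt8 and Krt18 were called in neither direction with shGFP (0.05 ± 0.06 and 0.08 ± 0.05), but both were called higher in 3D after scaling to total reads (0.17 and 0.19) and after quantile normalization (0.30 and 0.50). With shAnkrd35 both were lower in 3D (-0.22 ± 0.06 and -0.36 ± 0.05, adjusted p = 0.0046 and 1.05e-05), and neither call held with the GC and length trends removed (0.01 and -0.12); that of Krt18 was also lost after quantile normalization (-0.07). The Krt19 to Krt18 ratio of levels per kilobase was higher in 3D, at 0.253 ± 0.013 against 0.114 ± 0.012 in 2D with shAnkrd35, and at 0.264 ± 0.009 against 0.138 ± 0.008 in 2D with shGFP (SD, n = 4 each), with no overlap.

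Krt14 (chr11:100203162-100207548, minus strand), the type I keratin of basal epithelial cells, did not pass 2.18 CPM. It had 1.997, 2.11, 1.61 and 2.18 CPM in 3D with shAnkrd35, against 0.967, 0.571, 0.737 and 0.545 CPM in 2D with shAnkrd35. With shGFP it had 1.43, 1.79, 1.27 and 1.31 CPM in 3D, against 1.01, 1.41, 0.333 and 1.06 CPM in 2D. It rose with shAnkrd35 (1.40 ± 0.30, limma adjusted p = 0.000593), where the groups were separate, and missed the threshold with shGFP (0.69 ± 0.30, adjusted p = 0.0542), where they overlapped. With shGFP, Krt14 was called higher in 8 of 27 alternative fits. Among these was the one with the GC and length trends removed (0.74, adjusted p = 0.0416). The difference of its effects was not called (0.71). Krt13 rose with shGFP (0.94 ± 0.19, adjusted p = 0.000408). Krt10 was called with shGFP (0.49 ± 0.19, adjusted p = 0.0285), a call lost without 3D shGFP replicate 1 or 2D shGFP replicates 3 or 4 (0.38 to 0.47).

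Lower in 3D with both hairpins were Cgn, Cldn12, Krt80, Pkp4 and F11r. Cingulin fell in 3D (-0.54 ± 0.08 with shAnkrd35 and -0.91 ± 0.08 with shGFP, limma adjusted p = 1.01e-05 and 2.13e-08), so Tjp3 and Cgn, both higher with shAnkrd35, differed in direction between growth types. Krt80 fell as well (-0.9986 ± 0.12 and -0.66 ± 0.12, adjusted p = 1.21e-06 and 9.55e-05). So did Cldn12 (-0.31 ± 0.07 and -0.54 ± 0.07, adjusted p = 0.00102 and 4.71e-06). Pkp4 was at -0.17 ± 0.05 with shAnkrd35 and -0.48 ± 0.05 with shGFP, and F11r at -0.10 ± 0.04 and -0.16 ± 0.04 (adjusted p = 0.00546, 1.97e-07, 0.0281 and 0.00131). With shAnkrd35 the F11r call was lost without 3D shAnkrd35 replicates 1 or 3 or 2D shAnkrd35 replicate 3 (-0.09 to -0.08), and the calls of both Pkp4 and F11r were lost with the GC and length trends removed (-0.08 and 0.03) and after scaling to total reads (-0.08 and -0.01). The F11r call with shGFP was also lost after that scaling (-0.04).

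Among the genes whose growth effect differed between the hairpins by the test of the difference, the 4 with the lowest p-values were Cldn2, Dsc2, Dsp and Cldn6. Cldn2 rose in 3D with shGFP (0.96 ± 0.04, limma adjusted p = 1.42e-12) and was at 0.05 ± 0.04 with shAnkrd35. With shAnkrd35 it was called higher after quantile normalization, after scaling to total reads and with the GC and length trends removed. The last gave 0.12 (adjusted p = 0.0037), and no alternative gave more than 0.20. Cldn6 fell in 3D with shAnkrd35 (-0.82 ± 0.07, adjusted p = 5.33e-08) and was at -0.14 ± 0.07 with shGFP. With shGFP it was called lower after quantile normalization, with group weights and without 2D shGFP replicate 2. It was also called lower with the GC and length trends removed (-0.14, adjusted p = 0.0292). Dsp rose in 3D with shAnkrd35 (0.9951 ± 0.11, adjusted p = 8.05e-07) and was at -0.11 ± 0.11 with shGFP. Dsc2 fell in 3D with shAnkrd35 (-0.56 ± 0.12, adjusted p = 0.000692) and rose with shGFP (0.77 ± 0.12, adjusted p = 3.53e-05), at -1.09 and 0.42 with the GC and length trends removed. The difference of these growth effects is the same quantity as the difference of the hairpin effects given above, and Pkp1 was the other gene called in opposite directions (0.16 ± 0.05 with shAnkrd35 and -0.16 ± 0.05 with shGFP, adjusted p = 0.0124 and 0.0153). The Pkp1 call with shAnkrd35 was lost after quantile normalization (0.09), and that with shGFP was lost after scaling to total reads (-0.04) and with the GC and length trends removed (-0.06).

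The remaining calls between growth types were seen with 1 hairpin. With shAnkrd35, Tjp1 rose in 3D (0.33 ± 0.09, limma adjusted p = 0.00472), Pkp3 fell (-0.70 ± 0.18, adjusted p = 0.00201), and Pkp2 fell (-0.21 ± 0.07, adjusted p = 0.00965), a call lost after scaling to total reads (-0.12). With shGFP, Krt23 fell in 3D (-0.80 ± 0.13, adjusted p = 5.53e-05) and Perp fell (-0.21 ± 0.06, adjusted p = 0.00655), a call lost after scaling to total reads (-0.09). Ctnna1 was called with shGFP (-0.13 ± 0.04, adjusted p = 0.017) but was at 0.07 after quantile normalization and -0.01 after scaling to total reads, so no direction is given for it.

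E-cadherin was at -0.00 ± 0.04 between 3D and 2D with shGFP, at 0.12 after scaling to total reads and 0.17 after quantile normalization, so no direction is given for it there. With shAnkrd35 it rose by 0.23 ± 0.04 (limma adjusted p = 0.000197). Beta-catenin rose by 0.35 ± 0.05 and 0.60 ± 0.05 with shAnkrd35 and with shGFP (adjusted p = 3.56e-06 and 4.49e-09), with separate groups. The p120-catenin call with shAnkrd35 (-0.25 ± 0.08) was lost without 2D shAnkrd35 replicate 3 (-0.19) and after scaling to total reads (-0.16).

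**Figure D5:**
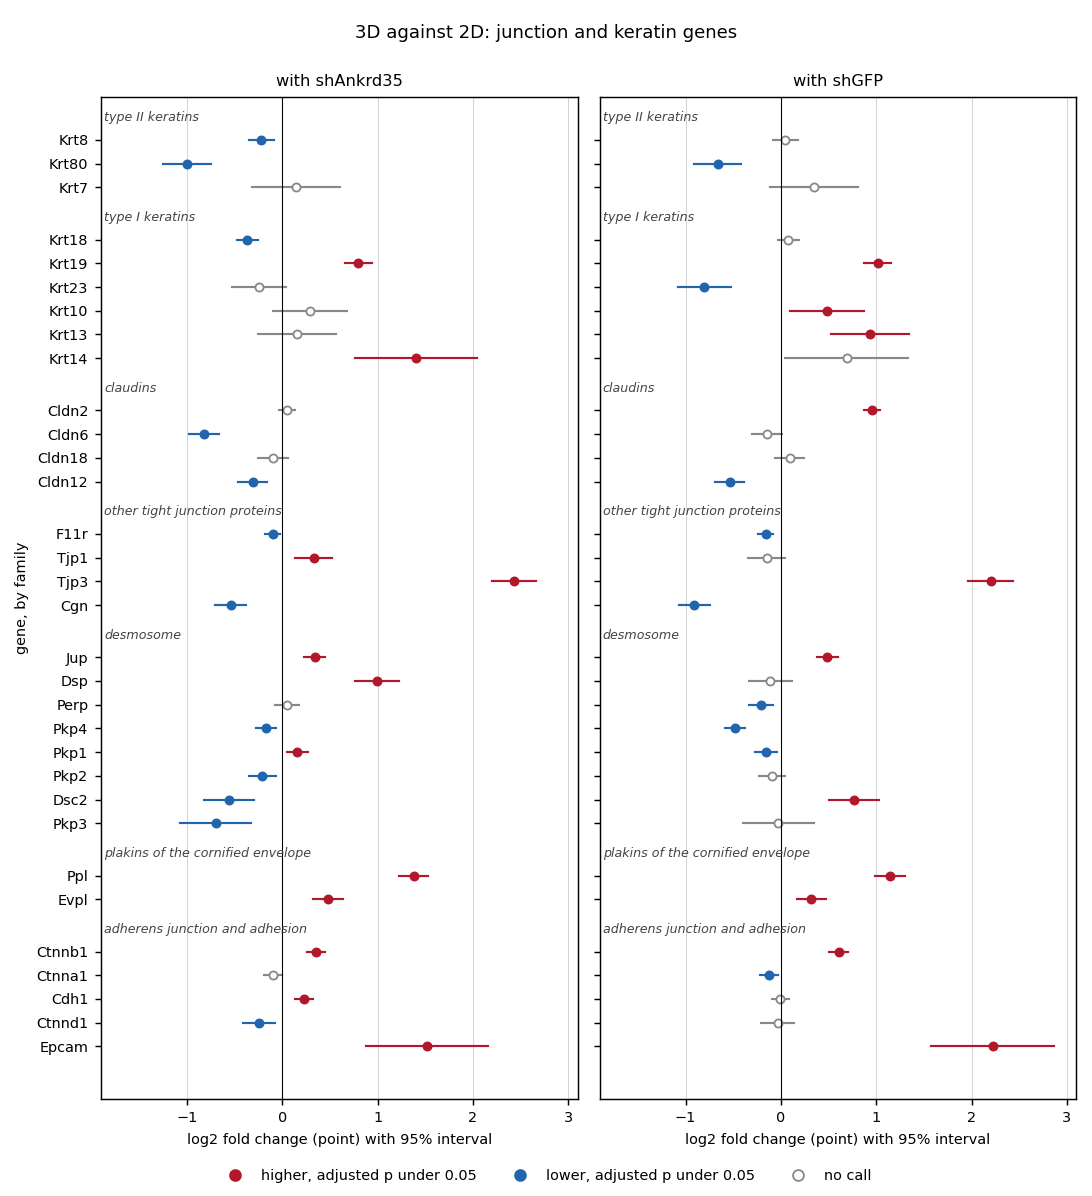
Log2 fold change of 3D against 2D for 32 of the 33 genes with shAnkrd35 (left) and with shGFP (right), with 95% intervals; filled points are higher (red) or lower (blue) at an adjusted p under 0.05. Tjp3, Epcam, Ppl and Krt19 lie to the right of 0 in both panels, and Dsc2 and Dsp sit differently in the 2 panels.

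Other genes of the junction apparatus were counted from lists. Of 32 measured polarity and junction scaffolds, 11 rose and 4 fell with shAnkrd35 in 3D, and 7 rose and 16 fell in 2D. Of all genes, 15% rose and 14.6% fell in 3D, and 29% rose and 28.8% fell in 2D, and the counts of each list below stand beside these shares. In these scaffolds the difference of the hairpin effects was positive in 15 and negative in 0 of the 32 by the limma test (16 and 2 at an unadjusted p under 0.05), with a median of 0.19, beside 17.1% higher and 18.6% lower and a median of 0.00 among all genes. Over all genes with a known GC content that difference correlated with exonic GC (Spearman's rho -0.292). The scaffold counts were not repeated with the GC and length trends removed, and the part of these trends in them was not tested. Llgl2, a basolateral polarity protein, rose in both (0.85 ± 0.09 in 3D and 1.04 ± 0.09 in 2D, adjusted p = 1.91e-06 and 8.38e-08), and Dlg3, a membrane scaffold of the MAGUK family, fell in both (-0.79 ± 0.06 and -0.98 ± 0.06, adjusted p = 2.87e-08 and 7.97e-10). Between growth types, Amotl2, an angiomotin scaffold, was lower in 3D (-2.29 ± 0.05 with shAnkrd35 and -2.19 ± 0.05 with shGFP, adjusted p = 8.87e-16 and 7.19e-16).

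Of 16 adherens junction partners and other cadherins, 9 rose and 2 fell with shAnkrd35 in 3D, and 9 rose and 5 fell in 2D. Plekha7 and Nectin2, both proteins of the apical adherens belt, rose in both: Plekha7 by 0.57 ± 0.05 in 3D and 0.77 ± 0.05 in 2D, and Nectin2 by 0.52 ± 0.05 and 0.77 ± 0.05 (limma adjusted p = 3.09e-07, 3.96e-09, 1.02e-06 and 5.03e-09). Of 18 hemidesmosome, plakin and keratin-partner genes, 6 rose and 4 fell in 3D, and 4 rose and 9 fell in 2D. Itga6, the alpha subunit of the hemidesmosomal integrin, fell in both (-0.60 ± 0.07 in 3D and -1.24 ± 0.07 in 2D, adjusted p = 7.35e-06 and 6.34e-10). Of 6 gap junction genes, 2 rose and 2 fell in 3D, and 3 rose and 1 fell in 2D. Of 15 junction proteases and kinases, 2 rose and 2 fell in 3D, and 2 rose and 8 fell in 2D, and of 6 cornified envelope genes, 1 rose and 2 fell in 3D, and 1 rose and 3 fell in 2D.

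Regulators known to act on junction and keratin genes were counted too. Of 19 measured, 10 were higher and 6 lower in 3D with shAnkrd35, and 10 higher and 5 lower with shGFP, beside 70.4% and 67.2% of all genes called, and between hairpins 7 rose and 5 fell in 3D, and 9 rose and 8 fell in 2D. Snai2, a repressor that binds the E-box printed above, had 7.99 ± 0.325 CPM in 3D with shAnkrd35, 9.096 ± 0.332 in 3D with shGFP, 24.02 ± 1.88 in 2D with shAnkrd35 and 49.996 ± 5.25 in 2D with shGFP (SD, n = 4 each). It fell with shAnkrd35 in 2D (-1.05 ± 0.08, limma adjusted p = 9.76e-09), and its difference of hairpin effects was 0.87 ± 0.11 (adjusted p = 2.12e-05). Ehf, an epithelial ETS factor, had 103 ± 4.33 CPM in 3D with shAnkrd35, 81.4 ± 4.42 in 3D with shGFP, 8.52 ± 1.41 in 2D with shAnkrd35 and 2.53 ± 0.552 in 2D with shGFP. It was higher with shAnkrd35 in 2D (1.72 ± 0.12, adjusted p = 1.23e-08) and higher in 3D with both hairpins. Hnf4a, a factor of gut and liver epithelium, rose with shAnkrd35 in both growth types (1.31 ± 0.12 in 3D and 2.32 ± 0.12 in 2D, adjusted p = 3.47e-07 and 1.79e-10). Klf4 and Cdx2, also on the list, moved in opposite directions in the growth types. With shAnkrd35 and with shGFP, Klf4 had 75.1 ± 3.14 and 46.3 ± 1.63 CPM in 3D, and 89.8 ± 6.24 and 145 ± 3.49 in 2D. In the same order Cdx2 had 16.6 ± 1.89 and 27.6 ± 0.685 CPM in 3D, and 23.5 ± 2.11 and 14.4 ± 1.34 in 2D. Whether these regulators act on the junction and keratin genes was not tested.

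Markers of other cell types were listed too. Of 10 fibroblast markers 6 were measured, with a summed level of 22.2 to 58.0 CPM in 3D with shAnkrd35, 34.7 to 39.9 in 3D with shGFP, 123 to 146 in 2D with shAnkrd35 and 95.4 to 107 in 2D with shGFP. Most of it in 2D was Acta2 (115 ± 10.3 CPM with shAnkrd35 and 66.8 ± 3.67 with shGFP), the smooth muscle actin, which was the 1 of the 6 that rose with shAnkrd35 in 2D. The receptors Pdgfra and Pdgfrb fell with shAnkrd35 in 2D (-0.84 ± 0.21 and -0.86 ± 0.11, limma adjusted p = 0.00322 and 7.43e-06). In 3D 1 of the 6 rose and 2 fell, and the gene that rose was not Acta2 (9.52 ± 0.610 CPM with shAnkrd35 and 10.2 ± 0.814 with shGFP). Col1a1 (7.99 ± 9.90 CPM) and Col1a2 (4.17 ± 4.23 CPM) varied widely between the 3D libraries with shAnkrd35. Of 9 airway and basal markers 5 were measured, with sums of 365 to 439 CPM in 3D with shAnkrd35, 143 to 170 in 3D with shGFP, 72.7 to 92.5 in 2D with shAnkrd35 and 59.9 to 72.3 in 2D with shGFP. Nearly all of that sum was the mucins Muc5b (327 ± 26.1 CPM in 3D with shAnkrd35 and 139 ± 12.3 with shGFP) and Muc5ac (70.8 ± 5.15 CPM in 3D with shAnkrd35 and 15.1 ± 0.8802 with shGFP). With shAnkrd35, 3 of the 5 rose and 1 fell in 3D, and 2 rose and 2 fell in 2D, and Krt14 is a member of both that list and the keratins. Of 8 endothelial markers 1 was measured (sums of 0.995 to 5.66 CPM over all libraries), of 9 macrophage markers 2 (3.39 to 32.1 CPM), and of 7 lymphocyte markers 0. The fibroblast and airway sums differed between growth types and hairpins, and their part in the results was not tested.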

How the data were processed

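RNA of LKR10 cells was enriched on oligo(dT) beads and copied with random hexamers, per the labels' protocols. The submitters' processing notes name Trimmomatic 0.38, STAR 2.5.1b, edgeR and the build mm10. The counting program, its annotation, any filter on weak genes and its handling of strand: none is given in the sources used here. Where strand was ignored, overlapping genes on opposite strands share reads. The table deposited by the authors holds log2 values, 1 column for each of 16 libraries, and 0 columns belonged to other samples. Judged by the values, they are logs of CPM of a scaled library size with a prior count averaging 2 reads. Taking off the prior turned 100% of values into whole reads (tolerance 0.01 reads), and these gave the depths and the CPM printed here, which leave the prior out.

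Tests used limma 3.58.1 in R 4.3.3 (empirical Bayes, variance trend, robust) on the log2 values, with 1 mean per group over all 16 libraries. A gene was tested if at least 4 libraries had 1 CPM or more with the prior, and of 12321 genes Ankrd35 alone failed. Benjamini-Hochberg adjustment ran over all tested genes within each of 5 contrasts. Rose, fell, higher and lower stand for an adjusted p under 0.05. Fold changes are on the log2(CPM + prior) scale, so they understate changes of low genes.

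The 33 genes and the related lists were chosen with earlier results of these data known. Of the 33, 1 gene enters the counts but is not reported here by name. Library values are given for genes called with at least a 2-fold change between groups, for the most abundant gene of each family per kilobase, and for the 6 lowest p-values in the difference of hairpin effects. From each related list up to 4 genes with the lowest p-values in a contrast may be named, and Vim was named outside this rule after its values were seen. Gene coordinates (counted from 1) and exonic lengths came from GENCODE M21 on mm10, where 12217 symbols matched and 104 did not. Near-identical transcripts were found with blastn 2.17.0. The fit was tried on simulated data. Alternatives were other scalings, priors, filters and weights, a replicate block, removal of GC and length trends, and leaving out each library.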

Additional observations from a re-analysis of the deposited data

Results flagged for a closer look

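Of 132 sets of 4 libraries (33 genes in 4 groups), 12 held 1 library whose gap to the others was over Dixon's 95% limit, where chance gives about 1 in 20. Library 1 of 2D shAnkrd35, which stood apart as a whole, was the high one for Cldn18 (77.9 CPM, the others 61.9 to 63.8), Pkp2 (47.6 CPM, the others 38.9 to 40.4) and Pkp4 (104 CPM, the others 88.3 to 89.6). In the same group F11r was high in library 3 (140.1 CPM, the others 134.6 to 135) and Jup in library 2 (399 CPM, the others 384 to 387). In 2D shGFP, library 1 was low for Cgn (16.4 CPM, the others 18.3 to 18.7) and high for Krt7 (0.926 CPM, the others 0.381 to 0.471), and library 2 was low for Ctnna1 (843 CPM, the others 908 to 919). In 3D shGFP, library 3 was high for Evpl (50.2 CPM, the others 44.0 to 45.0) and Ppl (229 CPM, the others 217 to 218), library 2 high for Krt13 (4.40 CPM, the others 3.26 to 3.28) and library 1 low for Krt18 (1840 CPM, the others 1859 to 1862).

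The hairpin effect differed between 3D and 2D, by the limma test of the difference at an adjusted p under 0.05, in 16 genes. On the log2 scale, 3D minus 2D, it was 1.11 for Dsp, 0.56 for Krt23, 0.48 for Tjp1, 0.37 for Cgn, 0.32 for Pkp1, 0.31 for Pkp4, 0.26 for Perp and 0.24 for Cdh1. It was -1.33 for Dsc2, -0.91 for Cldn2, -0.78 for Krt13, -0.68 for Cldn6, -0.67 for Pkp3, -0.44 for Krt18, -0.27 for Krt8 and -0.25 for Ctnnb1.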

How the results depend on the processing

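Over 33 genes and 5 comparisons, 106 of 165 values passed the test, and 79 of these passed it in every fit run for them: up to 12 alternatives, of which the filter at 5 CPM covered 140 values and the fits to single comparisons 132, and 16 fits that left out a library. With 4 libraries a group, and genes such as Krt7, Epcam and Krt14 at a few CPM or less, small changes could not be settled. Scaling to total reads left 5 genes lower in 3D than in 2D with shGFP, against 9, and 17 higher, against 12; this scaling moved the median of all genes by 0.119 there, and the cause beyond that was not tested. Removing the GC and length trends left 5 genes with a lower hairpin effect in 3D, against 8. Among values that passed the test with either processing, signs turned in 5 cases: 3D against 2D with shGFP was 0.17 for Cdh1 and 0.0701 for Ctnna1 after quantile normalization and 0.12 for Cdh1 after scaling to total reads, and 3D against 2D with shAnkrd35 was 0.0293 for F11r and 0.0145 for Krt8 with the GC and length trends removed. Of values called with neither, 21 changed sign in at least 1 fit. Without losing the call, removing those trends moved these fold changes by over 1.5 times: with shAnkrd35 to -0.22 for F11r and 0.40 for Krt18 in 2D and to 0.11 for Jup in 3D, in 3D against 2D with shAnkrd35 to -0.60 for Cldn12, 0.29 for Pkp1 and 0.19 for Tjp1, with shGFP to 0.57 for Evpl, and in the difference of effects to 0.42 for Perp, beside those of Krt19 and Dsc2 given above. Quantile normalization did so for Cdh1 in 2D (-0.13), in 3D against 2D with shAnkrd35 for Cdh1 (0.36), Ctnnb1 (0.55), Epcam (0.89) and Krt14 (0.90), and for Krt8 in the difference (-0.48). Scaling to total reads did so for Krt8 (-0.13) and Pkp1 (0.25) in 3D against 2D with shAnkrd35, and leaving out both 2D libraries numbered 1 did so for Ppl in 2D (-0.32). Leaving out each library gave 12 to 15 genes higher and 5 to 5 lower with shAnkrd35 in 3D, and 14 to 17 higher and 6 to 10 lower in 2D (6 without 2D shGFP replicate 2). Between growth types it gave 13 to 14 higher and 11 to 13 lower with shAnkrd35, and 11 to 13 higher and 9 to 10 lower with shGFP, and for the difference of effects 6 to 10 higher and 6 to 8 lower. Without both 2D libraries numbered 1, chosen after seeing the data, the counts in the same order were 15 and 6, 17 and 9, 13 and 12, 14 and 10, and 9 and 9, beside 37.1%, 65%, 73.9%, 67.7% and 51.6% of all genes called. Library numbers did not pair the groups (correlations of -0.483 to 0.206 over 24 pairs, with 4 of 16 libraries closest to their own number), and a replicate block gave 14 and 5, 16 and 9, 13 and 12, 13 and 9, and 8 and 7. It ended the call of Pkp3 in the difference of effects.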
